A study of Brassica oleracea with 7 samples.

Results

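Of 39481 gene loci in an RNA-seq survey of Brassica oleracea, the species of cabbage and broccoli, 2006 (5.08%) were listed at an FPKM of exactly 0 in all 7 tissues sampled. FPKM counts the sequenced fragments of a gene relative to the length of its model and to the number of fragments mapped in that library. These 2006 loci, called silent loci here, were chosen by that measured value alone, so their lack of expression is a description and not a finding. The deposited upper bound of the FPKM was also 0 in every tissue for each of them, and "silent" means no more than this listing. The 7 tissues were flower bud of 0.8 cm length, flowers that opened on the same day, seed pods (siliques) taken 15 days after pollination, and leaf, root and stem of plants 7 weeks old. The last was callus, dividing cells held in tissue culture. Callus was kept at 25 °C, and the plants stood in a greenhouse at 15 to 25 °C. Each tissue was 1 library of polyadenylated RNA. No difference between tissues therefore has a replicate check, and no p-value was computed. The cultivar is not given in the sources used here, and the gene IDs are not paired with names, so tissue markers could not be read and no locus is given a function.

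Plant gene models are largely predicted from genome sequence, and a predicted gene gives fragments in RNA-seq only where the sampled cells hold its polyadenylated RNA. The ancestors of B. oleracea were polyploid, so many of its genes have related copies elsewhere in the genome. The genome is also rich in transposable elements, mobile DNA that can carry open reading frames of its own. For the silent loci, the locus column of the deposited table gives their length, their place and the neighbours they have.

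The depth of the libraries set part of what a listed 0 could hide. The deposited intervals imply 67268968 fragments in gene models over the 7 libraries. This total includes rows with a shared locus entry, some of whose intervals imply more fragments than their FPKM and span allow. By the same intervals, the FPKM columns had been divided by 12419268 (callus) to 13849910 (silique) fragments. For an intronless locus of 829 bp, the median span of the silent loci, the 3 fragments that a count of 0 still allows would have been 0.261 to 0.291 FPKM in a single library and 0.0381 FPKM over all 7 together. For a locus of 233 bp, the median of silent loci under 300 bp, these limits were 0.930 to 1.04 FPKM and 0.136 FPKM. A locus with introns has a coding length below its span, so its limit is higher by an amount that the span does not give. These limits cover counting error only. In 219 rows above 0, the intervals implied less than 1 fragment, so not all values stand for whole fragments. Whether fragments that match several loci were divided among them or left out was not tested.

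By span, the rows just outside the rule formed no separate class. Against 2006 rows with 0 fragments, 1468 rows had implied totals above 0 and up to 1 fragment over all 7 tissues, 865 had above 1 and up to 2, and 615 had above 2 and up to 3. Their median spans were 797.5, 888 and 926 bp, close to the 829 bp of the silent loci, while rows above 10 fragments had a median of 1844 bp. The median gap to the nearest row fell more evenly. It was 2868 bp at 0 fragments, 2537, 1965 and 1871 bp in the same order of classes, and 1070.5 bp above 10 fragments. The row with the lowest highest-FPKM above 0 was Bol007630 (Scaffold000258, 216018 to 220070), at 0.00102 FPKM in bud, 0.000209 in callus, 0.000812 in leaf, 0.00111 in stem and 0 in the remaining tissues. It shares its locus entry with Bol007631, which was at 2.004 FPKM in flower, its lowest tissue, and 12.9 FPKM in leaf, its highest. Despite its low FPKM, the deposited intervals of Bol007630 imply 1211 fragments, so it is not a row of few fragments by that measure. Rows with a shared entry had such intervals in other cases too, as described with the overlapping loci. The next was Bol044759 (Scaffold000002, 6382962 to 6387328), at 0.00459 FPKM in leaf and 0 in the other 6 tissues. Its intervals imply 0.206 fragments.

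The silent loci made up between 19.8% and 28.1% of all rows listed at 0 in a tissue. Rows at 0 were fewest in bud (7128, 18.1% of rows) and callus (7629, 19.3%), followed by silique (7738, 19.6%), flower (8597, 21.8%), stem (9761, 24.7%), leaf (9986, 25.3%) and root (10116, 25.6%). Another 2797 rows missed the rule by a single tissue. Silique was that tissue for 885 of them, bud for 595, callus for 479, root for 338, leaf for 202, flower for 194 and stem for 104. By implied coding length, 18.9% (109 of 577) of the bud rows and 35.9% (730 of 2032) of the rest were intronless. Whether rows absent from the table lower the bud count was not tested. Most of the 2797 rows were low, with medians of 0.175 (root) to 0.357 FPKM (silique). In silique, 260 of the 885 nevertheless reached 1 FPKM and the highest was at 414 FPKM, and in bud 130 of 595 reached 1 FPKM and the highest was at 102 FPKM. In stem 3 of 104 did.

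Silent loci were short. Their span, from the first to the last base of the locus including introns, had a median of 829 bp (95% interval 788 to 869) and quartiles of 437 and 1674 bp. The other 37475 loci had a median of 1718 bp (1700 to 1731) and quartiles of 1014 and 2750 bp. By number of tissues above 0, the median was 890 bp at 1 tissue, 1144 bp at 2, 1202 bp at 3, 1346.5 bp at 4, 1300.0 bp at 5, 1405 bp at 6 and 1998 bp at all 7. Intervals here and below are exact binomial intervals (Clopper-Pearson for shares, order statistics for medians). They treat loci as independent draws and are not tests, and no test of silent against other loci was made.

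**Figure D1:**
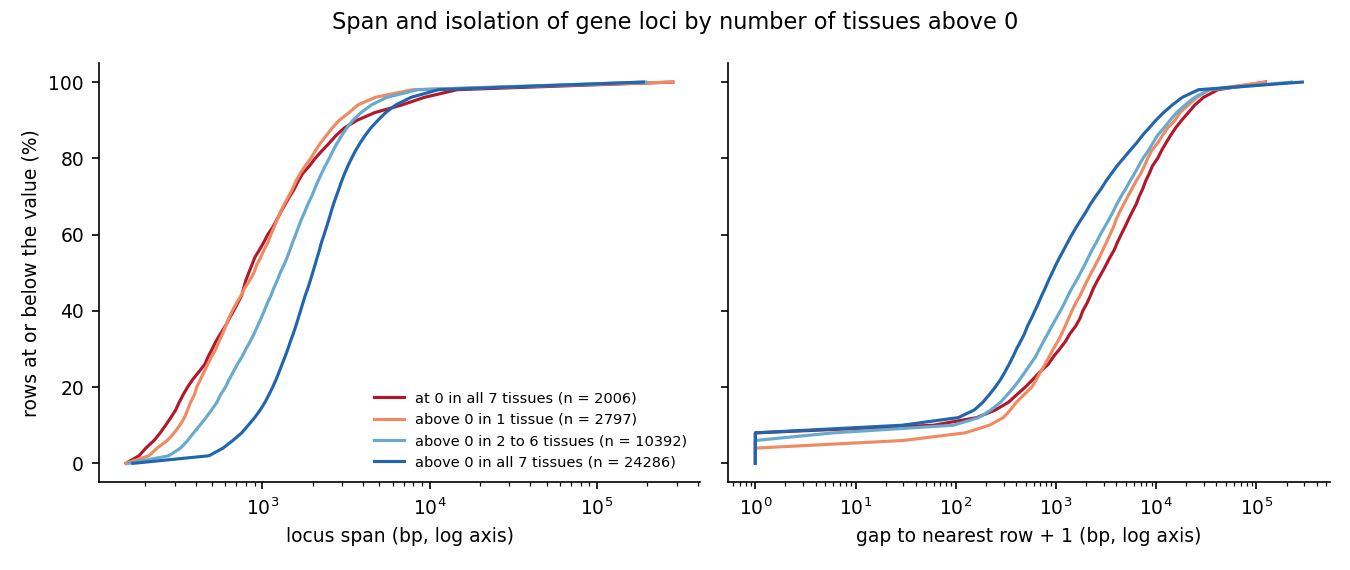
Cumulative share of rows (y axis, %) against locus span in bp (left) and against the gap to the nearest row plus 1 bp (right), both on log axes, for rows above 0 in 0, 1, 2 to 6 and all 7 tissues. The curve of silent loci lies to the left of that of the loci above 0 in all 7 tissues for span over most of its length and crosses it near the top, and it lies to the right for the gap, with medians of 829 against 1998 bp and 2868 against 916 bp.

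The share of silent loci fell steeply with span and rose again among the longest. Of 840 rows under 300 bp, 273 were silent (32.5%, 29.3% to 35.8%), against 5.08% of all rows. The share was 11.1% at 300 to below 600 bp, 6.61% at 600 to below 1200 bp, 2.81% at 1200 to below 2400 bp and 2.34% (267 of 11423) at 2400 to below 10000 bp. Among 881 loci of 10000 bp or more it was 8.51% (75 loci, 6.75% to 10.6%). Short loci collect fewer fragments at a given level, so the share in the short classes also moves with the detection limit given above, and the part of each was not tested. The shortest silent loci were Bol027790 (Scaffold000075, 901719 to 901871, 153 bp) and Bol009716 (Scaffold000230, 785248 to 785403, 156 bp, a span that other silent loci share). The longest were Bol013517 (Scaffold000186, 761334 to 1045256, 283923 bp) and Bol005456 (Scaffold000299, 287293 to 512190, 224898 bp).

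**Figure D2:**
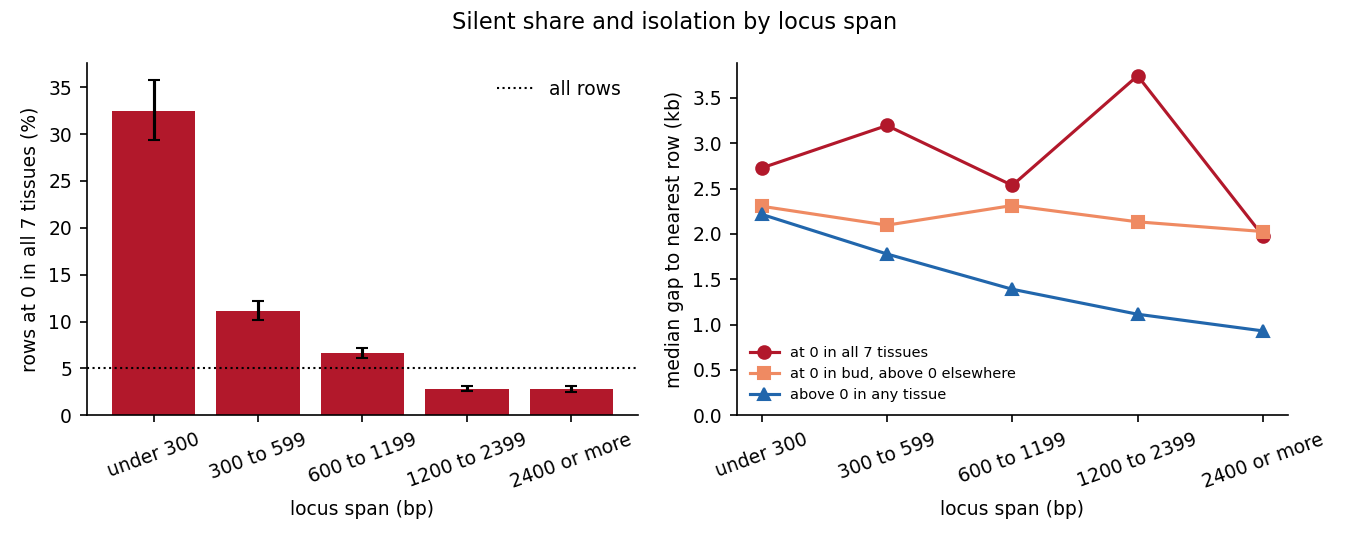
Left, share of rows at 0 in all 7 tissues (y axis, %) by span class, with 95% Clopper-Pearson intervals and a dotted line at the 5.08% of all rows. Right, median gap to the nearest row in kb by span class for silent loci, for rows at 0 in bud but not everywhere, and for all rows above 0 in any tissue. The silent share falls from 32.5% under 300 bp to 2.78% at 2400 bp or more, and the gap of silent loci is above that of rows above 0 in any tissue in each class, but not above that of rows at 0 in bud at 2400 bp or more.

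The spans also carry a trace of gene structure. A coding sequence without introns has a span that is a multiple of 3, whereas an intron-bearing locus has one in about 33.3% of cases. Of the silent loci, 1058 (52.7%, 50.5% to 54.9%) had such a span, and the remainders of 1 and 2 were equally frequent, with 474 loci each. This share corresponds to about 29.1% intronless loci. The same calculation gave 6.73% for the other loci, where the coding length implied by the FPKM values could be set beside it and gave 6.07% (2258 of 37222). Rows of intronless genes with fragments in bud were scarce in the table, 865 of 32316 (2.68%) by coding length, so rows at 0 in bud are the closer comparison. Among the 5122 rows at 0 in bud that were above 0 elsewhere, 53.2% had a multiple of 3 (51.8% to 54.6%), which corresponds to 29.8% intronless loci. The intervals of these rows and of the silent loci overlap. By span, a multiple of 3 was found in 79.9% of silent loci under 300 bp, 61.2% at 300 to below 600 bp, 46.7% at 600 to below 1200 bp, 44.3% at 1200 to below 2400 bp and 39.5% at 2400 bp or more, within which the loci of 10000 bp or more had 32.0%. Rows at 0 in bud but not everywhere had 78.9% under 300 bp, higher values than the silent loci at 300 to below 600 bp (68.5%) and 600 to below 1200 bp (53.2%), and lower ones at 1200 to below 2400 bp (41.6%) and 2400 bp or more (36.5%).

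A few exact spans recurred among the silent loci. These spans were singled out after the values were seen and are given without a test. Leaving out rows that share a locus entry, 12 silent loci spanned exactly 186 bp, as did 17 rows in all. Another 12 each spanned 762 bp (of 26 rows) and 774 bp (of 34 rows), 2 spans that lie within 30 bp of each other. Nearby spans also held several silent loci, up to 9 each around 186 bp and up to 12 around 762 bp and 774 bp. At the longer end, 10 of 27 rows of exactly 2511 bp were silent, each on a different scaffold, from Bol003779 (Scaffold000340, 286644 to 289154) to Bol045006 (Scaffold000001_P2, 1084646 to 1087156). Multiples of 3 within 30 bp of that span held at most 1 silent locus each. Spans of 1239 bp and 2757 bp recurred in 8 of 23 and 7 of 16 rows, again each time on different scaffolds. All of these spans are multiples of 3. The rows of the same span that were not silent were not uniformly low: of 17 such rows of 2511 bp, 13 reached 1 FPKM in some tissue and the highest was at 560 FPKM, and of 9 rows of 2757 bp, 5 did. Whether loci of equal span are copies of one sequence was not tested, since no genome sequence was used here.

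Silent loci lay apart from other genes. The median gap from a silent locus to its nearest row was 2868 bp (2591 to 3184), against 1167 bp (1143 to 1197) for the other loci, with overlapping loci counted as a gap of 0. To the farther of both neighbours it was 12968 bp against 8283 bp. It was 2254 bp for loci above 0 in 1 tissue, between 1611 and 1967 bp for those above 0 in 2 to 6 tissues, with no steady order, and 916 bp for those above 0 in all 7. Rows at 0 in bud but above 0 elsewhere lay between, at 2173 bp (2047 to 2277). By span class, the contrast depended on the rows compared. At 300 to below 600 bp the median gap was 3197 bp for silent and 1780 bp for other loci, and at 1200 to below 2400 bp it was 3745 bp against 1115 bp, whereas under 300 bp the 2 values were 2728 and 2217 bp. Rows at 0 in bud but not everywhere had medians of 2098 bp and 2134 bp in the first 2 of these classes. At 600 to below 1200 bp silent loci had 2536 bp and those rows 2314 bp, and at 2400 bp or more silent loci had 1978 bp and those rows 2027 bp. At 10000 bp or more all 3 medians were 0, since most such loci overlap another.

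Absent rows move with this isolation, and their part in it was not tested. The ID numbers run along the scaffolds, and 6361 numbers between 96 and 45937 have no row in the table analysed. Of the silent loci, 667 (33.3%, 31.2% to 35.4%) were next to such a number, against 21.0% of the other loci (20.6% to 21.5%). The sets closest to the silent loci lay between. The share was 29.2% (27.6% to 30.97%) for loci above 0 in 1 tissue. For rows at 0 in bud but not everywhere it was 26.4% (25.2% to 27.7%). Where the neighbouring ID was absent, the median gap was 6088 bp (5242 to 7095) for silent and 4040 bp for other loci. Rows at 0 in bud but not everywhere had 5656.5 bp (5048 to 6395) there, so their interval and that of the silent loci overlap. Among rows with both neighbouring IDs present, silent loci still had the wider gap, at 2052 bp (1846 to 2282, 1339 loci) against 916 bp (895 to 936). Rows at 0 in bud but not everywhere had 1636 bp (1512 to 1739) in that subset.

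Silent loci often had silent neighbours, relative to their share of the table. Of the 3912 rows that flank a silent locus, counted once for each side, 368 were silent too (9.41%, 8.51% to 10.4%), against a background of 5.04% for the flanking rows of all loci and 4.81% (4.66% to 4.97%) for those of loci that were not silent. Each pair of adjacent silent loci enters the 368 from both sides, so the interval of the 9.41% is too narrow. The share of silent flanking rows was 7.15% for loci above 0 in 1 tissue and 4.25% for loci above 0 in all 7. Most silent loci nonetheless stood alone: 1663 had no silent neighbour, 136 pairs held 272, and 23 runs of 3 or more held 71 (3.54%). The number of runs rests on which tissues must be at 0. It was 57 without silique and 39 without bud, 49 where up to 0.1 FPKM was allowed, and 14 where neighbours needed consecutive ID numbers.

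**Figure D3:**
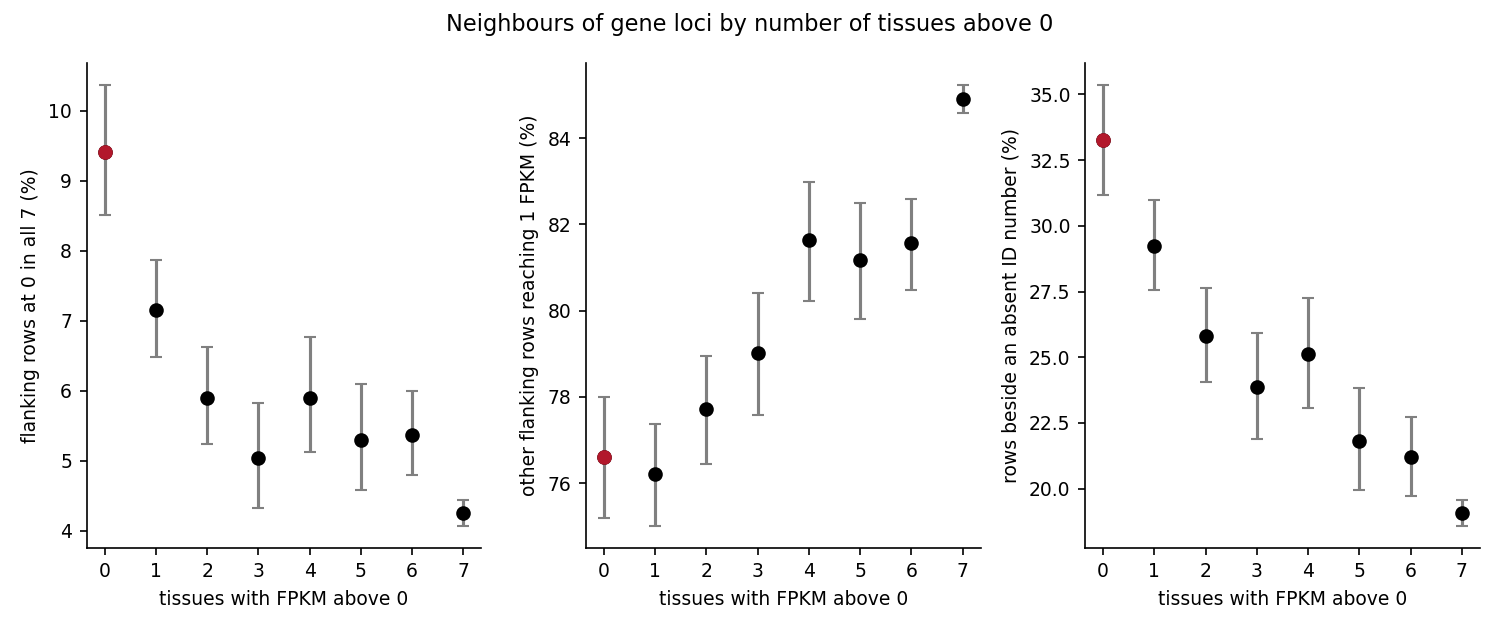
Share of flanking rows that are silent (left), share of the other flanking rows that reach 1 FPKM in some tissue (middle) and share of rows beside an absent ID number (right), each in % on an axis that does not start at 0, against the number of tissues in which the row itself is above 0. Points are shares with 95% Clopper-Pearson intervals, and silent loci are in red. The interval of the red point on the left is too narrow, since each pair of adjacent silent loci is counted from both sides. Silent loci have the highest share of silent neighbours (9.41%) and the highest share beside an absent ID (33.3%).

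The longest runs had 4 silent loci each, and they differ in layout. On Scaffold000185, Bol013553 (133479 to 133664), Bol013554 (134811 to 134996), Bol013555 (143978 to 144151) and Bol013556 (145406 to 145591) spanned 186, 186, 174 and 186 bp, with gaps of 1146, 8981 and 1254 bp between them. They lie between expressed genes. Bol013552, 546 bp before the run, was at 11.6 FPKM in bud, 5.75 in callus, 7.09 in flower, 6.79 in leaf, 4.13 in root, 9.15 in silique and 4.68 in stem. Bol013557, 387 bp after it, was at 25.3 FPKM in bud, 137 in callus, 155 in flower, 6.87 in leaf, 2.77 in root, 30.2 in silique and 16.3 in stem. It was thus high in callus and flower and low in leaf and root.

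On Scaffold000220 the 4 loci, from Bol010532 (165516 to 165885) to Bol010535 (264667 to 264901), were spread over almost the whole distance between expressed neighbours, with gaps of 40242, 28509 and 28533 bp. Their spans were 370, 1296, 201 and 235 bp. Bol010531, 8682 bp before the run, was at 8.28 FPKM in bud, 12.9 in callus, 5.20 in flower, 13.4 in leaf, 5.98 in root, 5.91 in silique and 2.24 in stem. Bol010536, 587 bp after it, was at 2.34 FPKM in bud, 12.7 in callus, 7.18 in flower, 10.98 in leaf, 2.95 in root, 0.851 in silique and 3.21 in stem. Both runs are therefore bordered on each side by loci that were above 0 in all 7 tissues.

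**Figure D4:**
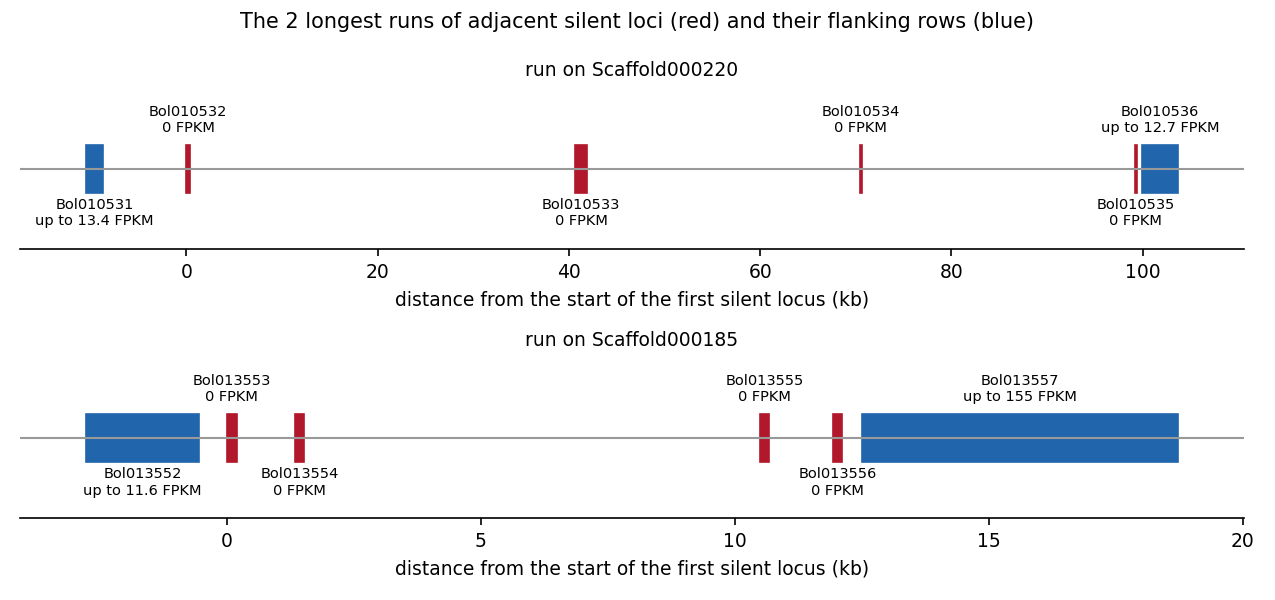
Maps, to scale, of the 2 runs of 4 adjacent silent loci (red) with the expressed row on each side (blue), as distance in kb from the start of the first silent locus, with the highest FPKM over the 7 tissues under or above each locus. The silent loci on Scaffold000185 are of 174 or 186 bp in 2 close pairs, and those on Scaffold000220 lie 28509 to 40242 bp apart.

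Some adjacent silent loci had equal spans. Of 177 adjacent silent pairs that do not overlap, 4 had exactly the same span (2.26%, 0.619% to 5.68%), against 52 of 37225 other pairs (0.140%). Spans within 30 bp of each other were found in 8 of the 177 (4.52%, 1.97% to 8.71%) and in 2.07% of the other pairs, a value inside that interval. These 4 pairs include 1 from the run on Scaffold000185, and the count is small. Silent pairs were farther apart than other pairs, with a median gap of 8751 bp against 3946 bp.

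The expressed neighbours of silent loci were on the low side in every tissue. A row was called detected at 1 FPKM or more in some tissue, which held for 82.6% of the 37475 loci that were not silent. Of the 3438 such rows that flank a silent locus, 2646 were detected (77.0%, 75.5% to 78.4%), against 83.1% (82.7% to 83.5%) of the 34037 that flank none. Their median highest FPKM was 6.88 (6.37 to 7.56) against 9.39 (9.18 to 9.62). They were above 0 in all 7 tissues in 58.0% of cases against 65.5%. This was not particular to the neighbours of silent loci: the 4570 rows that flank a locus above 0 in 1 tissue, and no silent locus, were detected in 77.2% of cases (75.9% to 78.4%) and had a median highest FPKM of 7.11. The 106 rows with a silent locus on both sides were detected less often, in 69 cases (65.1%, 55.2% to 74.1%), with a median highest FPKM of 3.14 (1.43 to 5.05).

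Across tissues, the median FPKM of flanking rows was 2.23 in bud against 3.48 for rows that flank no silent locus, 2.63 against 4.07 in callus and 1.46 against 2.38 in flower. It was 1.71 against 2.95 in leaf, 0.942 against 1.66 in root, 2.14 against 3.09 in silique and 1.31 against 2.21 in stem. The ratio of both medians ran from 0.566 in root to 0.693 in silique, so all 7 libraries showed the same direction. The libraries share the loci compared, so they are not 7 independent checks. Rows at 0 were more frequent among flanking rows as well, from 17.9% against 13.2% in bud to 27.5% against 21.1% in root. The detected share of flanking rows moved little with their distance from the silent locus. It was 74.8% below 1000 bp without overlap, 78.5% at 1000 to below 5000 bp and 76.9% at 5000 bp or more. Rows that flank no silent locus, sorted by the gap to their own nearest row, had 87.1%, 80.6% and 78.4% in these classes. The difference was thus small from 1000 bp on, though the 2 distances are not the same measure. Whether the lower level goes with isolation was not tested.

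**Figure D5:**
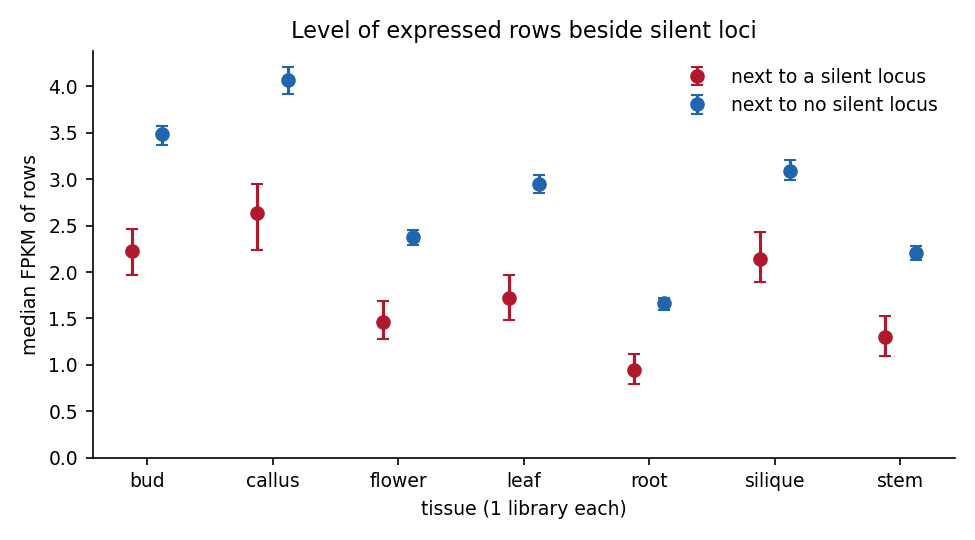
Median FPKM (y axis) in each tissue (x axis, 1 library each) of expressed rows next to a silent locus (red, n = 3438) and next to none (blue, n = 34037), with 95% order-statistic intervals over rows. The red point lies below the blue one in all 7 tissues, from 0.942 against 1.66 FPKM in root to 2.63 against 4.07 FPKM in callus.

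A silent locus could also lie beside very abundant genes. Bol034987 (Scaffold000037, 2379275 to 2379987, 713 bp) is 3772 bp from Bol034986 (2374448 to 2375502), which was at 447 FPKM in bud, 46.7 in callus, 3008 in flower (deposited interval 2972 to 3043), 20.1 in leaf, 239 in root, 288 in silique and 248 in stem. Bol014757 (Scaffold000171, 945678 to 946012, 335 bp) is 27462 bp from Bol014756 (917499 to 918215). That gene was at 2833 FPKM in bud (2784 to 2882), 3.98 in flower, 2.94 in leaf and 1.48 in root, and was listed at 0 in callus, silique and stem. These were the highest values of any row that flanks a silent locus, 1 broad with a peak in open flower and 1 almost limited to bud.

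Over all spans, overlap with another locus concerned 175 silent loci (8.72%, 7.53% to 10.04%) and 8.69% of the others (8.41% to 8.98%). Rows that share a locus entry made up 28 of these 175 and 179 of the 3258 other overlapping loci. Without such rows the shares were 7.43% (6.31% to 8.68%) and 8.24%. Counts of partners below include them. With those rows kept, shares by span were 5.49% against 6.35% under 300 bp and 4.93% against 7.19% at 300 to below 600 bp. They were 5.07% against 6.82% at 600 to below 1200 bp and 5.60% against 5.95% at 1200 to below 2400 bp. No interval was computed for the shares by span. At 2400 bp or more they were 25.7% against 13.6%. That last class holds more of the longest loci among silent rows: 75 of 342 had 10000 bp or more, against 881 of all 12304 rows. Split there, the differences were smaller. Overlap was 11.985% against 9.73% at 2400 to below 10000 bp. At 10000 bp or more, 56 of 75 silent and 540 of 806 other loci overlapped another. Loci above 0 in 1 tissue and rows at 0 in bud but not everywhere had a share of 5.43% in both sets (4.62% to 6.34% and 4.82% to 6.08%). Without the silique library the share of silent loci was 7.33% (6.41% to 8.34%) and that of the others 8.80%. The partner reached 1 FPKM in 140 of the 175 cases (80.0%, 73.3% to 85.7%), below the 87.4% (86.2% to 88.5%) of the other overlapping loci. Another silent locus was overlapped by 27 of the 175 (15.4%, 10.4% to 21.6%), against 8.23% of the other overlapping loci that overlapped a silent one. In all, 83 of the 2006 silent loci lay wholly inside another locus, as did 950 of the 37475 other loci. Another locus was held inside by 31 of the silent loci and by 426 of the others. The library protocol names no step that marks strand, so fragments of overlapping genes cannot be told apart by strand.

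Rows that share a single locus entry need separate reading. In the table, 207 rows carry a start and end identical to those of another row. Of these, 28 were silent (13.5%, 9.18% to 19.0%), against 5.04% of rows with an entry of their own (1978 of 39274). In 14 of the 28, a row with the same entry reached 1 FPKM, in 12 it was above 0 but below 1 FPKM, and in 2 no row of the entry was above 0. In such entries the deposited intervals did not follow the pattern of the rest: in each tissue 28 to 36 of the shared-entry rows above 0 implied more fragments than their FPKM and span allow, by over 1.1 times, and no other row did. How fragments were divided among rows of an entry is not given in the sources used here, so whether fragments fell in these 28 rows cannot be told from the listed 0. Without shared entries 1978 silent loci remain, and their median span (808.5 bp) and gap (2977 bp) moved by less than their intervals.

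Most of the long silent loci overlapped other loci. Of the 75 of 10000 bp or more, 56 (74.7%) overlapped another locus, as did 540 of the 806 other loci of that length. Whole rows were held by 28 of the 75 silent loci (110 rows) and by 350 of the 806 others (1016 rows). Holding whole rows was thus not particular to the silent ones. Bol013517 overlaps 5 other rows, among them Bol013520 (802710 to 1014477), itself silent and 211768 bp long and wholly inside it, the longest overlap of a silent locus. Of those 5 rows, 2 were silent and 2 reached 1 FPKM, the highest being Bol013525 at 13.3 FPKM in bud. Bol005456 overlaps 27 rows, of which 3 were silent and 15 reached 1 FPKM, with Bol005472 at 149 FPKM in callus. Spans of this size include whatever the annotation joined into 1 gene model, and they say nothing of the coding length, which cannot be derived for a row at 0.

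Silent loci were scattered over the assembly. They occurred on 454 of 699 scaffolds, and on all 125 scaffolds with 100 or more rows. There the share ran from 0.926% (1 of 108 rows on Scaffold000240) to 12.7% (18 of 142 on Scaffold000005), with a median of 4.66%. The share over all rows was 4.53% on these scaffolds (4.27% to 4.81%), 5.80% on scaffolds of 10 to below 100 rows (5.44% to 6.18%), 7.55% on those of 2 to 9 rows and 10.2% (10 of 98, 5.003% to 17.97%) where a row was alone. Of the silent loci, 4.49% (3.62% to 5.49%) were the first or last row of a scaffold, against 3.23% of the others (3.05% to 3.41%). This was not particular to silent loci. The share was 5.22% (4.42% to 6.11%) for loci above 0 in 1 tissue. For rows at 0 in bud but not everywhere it was 4.41% (3.87% to 5.01%). On scaffolds of 10 or more rows the values were 3.47% for silent and 2.46% for other loci.

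Among scaffolds of 20 or more rows, Scaffold000031_P2 had the highest share, with 7 of 30 rows silent (23.3%, 9.93% to 42.3%). Its rows lie far apart, at 74.2 kb per row against 12.2 kb over all scaffolds. Of its silent loci, 3 spanned exactly 324 bp, namely Bol035947 (934404 to 934727), Bol035975 (2271943 to 2272266) and Bol035977 (2411821 to 2412144), and the last 3 rows of the scaffold, Bol035975 to Bol035977, were all silent.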

How the data were processed

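Poly(A)+ RNA of 7 tissues was sequenced as paired ends, 1 library each. The deposited table gives FPKM with a lower and an upper bound per gene, computed by the authors, per the file headers, which also pair the columns with tissues. The submitters' processing notes list TopHat 1.0.13; neither genome build nor annotation is given in the sources used here. Starts were raised by 1. The RefSeq gene table of assembly BOL (53125 genes) held 0 of the IDs. Rows were ordered by start on each scaffold, and flanking rows are the adjacent ones. Fragments behind a value were implied from the bounds (upper bound read as 2 standard deviations of a count), and the divisor of each column was the modal value over rows whose span is a multiple of 3. Loci whose coding length, from fragments and FPKM, differed from the span by less than 0.2% were taken as intronless. Python 3.11.15, pandas 2.3.3 and scipy 1.17.1 were used, and the steps were tested on simulated loci. The silent loci, the lists and the alternatives were chosen with earlier results of these data known. Named IDs are the 2 longest and shortest silent loci, the 2 longest runs, and the scaffold of 20 or more rows with the highest silent share. The 2 with the highest flanking row, the 2 longest overlaps and the 2 rows just outside the rule are also named. Recurrent spans, and the further IDs named with them, inside the longest loci or as partner of a row just outside, were chosen after values were seen.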

Additional observations from a re-analysis of the deposited data

How the results depend on the processing

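No paired analysis was possible because no group has a second sample and nothing was tested. Counts were held to 1.5 times and other values to their 95% interval: 95 values stayed within these limits and 22 moved. With 1 tissue left out in turn, the number of silent loci was 2110 to 2891, their median span 815 to 880 bp, the share of silent flanking rows 9.75% to 14.1% (without silique 6.72% for flanks of other loci), the runs of 3 or more 26 to 57, the median gap 2541 to 2862.5 bp, and the share overlapping another locus 7.33% to 8.69%. Up to 0.5 FPKM there were 6427 silent loci. Up to 0.1 FPKM the median span was 1109.5 bp, 12.2% of flanking rows were silent (6.93% for other loci), 49 runs were found, and 79.5% of the other flanking rows were detected. Without rows under 300 bp the median span was 984 bp and 48.5% of spans were multiples of 3. On scaffolds of 10 or more rows 3.47% of silent loci were at an end, consecutive IDs gave 14 runs, the farther neighbour lay at 12968 bp, and 55.8% of flanking rows reached 5 FPKM. Without shared locus entries, a setting chosen after seeing the data, 7.43% overlapped another locus (8.24% of the other loci). The changes follow from the sets that each setting admits; no other cause was tested. At 1 library per tissue, a 0 limits the level of short loci least.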
